A study of Mus musculus with 18 samples.

Results

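The question here was whether the second phase of IL-3 deprivation, from 6 h to 18 h without cytokine, changed gene expression differently in WT and p53-/- FDM cells. FDM (Factor Dependent Myeloid) cells are myeloid lines of the mouse that HoxB8 keeps immature and that need IL-3 to live. All clones of both genotypes carried HoxB8, and each clone is a cell line of its own, so the replicates are 3 independent lines per genotype. Of the 18 arrays of the series, 12 entered the comparison, 3 WT and 3 p53-/- clones at 6 h and the same clones at 18 h. The 0 h arrays, from the 6 clones still growing in IL-3, are shown for orientation only. For each probe the change from 6 h to 18 h was taken within each clone. The weighted mean change of the p53-/- clones minus that of the WT clones is called the difference in late change. Weights follow the reliability of each clone's change and were 2.41, 0.82 and 0.15 for p53-/- clones 1, 2 and 3. Changes given for a genotype are these weighted means, so those of p53-/- cells rest mostly on clone 1. Levels and changes are on the log2 scale of normalized probe intensity throughout. The difference was computed for 20368 of 46632 probes, those detected on at least 1 of the 12 arrays, which stood for 10723 named genes. The ages of the donor mice and the allele used to delete p53 were not given in the sources used here, and Trp53 itself was not analysed here, so genotype rests on the labels. Of the myeloid markers, Prtn3, Ctsg, Cebpe and Fcer1a were detected on all 18 arrays, but others were not, among them Kit, Elane and Mpo.

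IL-3 signals through a receptor coupled to JAK kinases, which activate STAT5, the Ras and ERK pathway and the PI3K and AKT pathway, and together these sustain growth, division and survival of myeloid progenitors. When it is taken away, cells leave the cell cycle, and BH3-only proteins of the BCL-2 family can then trigger apoptosis. p53 is a transcription factor whose targets include Cdkn1a (p21), an inhibitor of the cyclin-dependent kinases that drive S phase entry, and Bbc3 (Puma), a BH3-only protein. When the kinases are inhibited, RB family proteins stay bound to E2F factors and genes for DNA synthesis and mitosis are repressed.

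The arrays were of like quality but for one. Median intensity per array ran from 102.9 to 175.2, and 27% to 34% of probes were detected. Both lowest values belonged to the 18 h array of p53-/- clone 3. Its change from 6 h had an SD over probes of 1.18 on the log2 scale, against 0.47 to 0.64 in the other 5 clones, and it was given a weight of 0.15 in the fit where the others had 0.82 to 2.55. The changes of the 3 WT clones correlated with one another at r = 0.53 to 0.69 over 20368 probes, those of the p53-/- clones at 0.09 to 0.40, and WT with p53-/- clones at 0.18 to 0.31. These r values are across probes, which are not independent.

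The calls rest on that weighting. With weights, 248 probes had a higher late change in p53-/- than in WT cells (1.22% of those tested) and 196 a lower one (0.962%), where passing took an adjusted p no higher than 0.1 together with B, limma's log odds of a real difference, above 0. With all 6 clones weighted equally, 0 probes passed, and 2126 had an unadjusted p under 0.05 against 5709 with weights. With no filter on detection, where 46632 probes were tested in place of 20368, 0 passed as well, and 5234 had an unadjusted p under 0.05. Median scaling in place of quantile normalization turned the split, to 268 higher and 346 lower, and moved the median difference over all genes from 0.08 to -0.18. Without p53-/- clone 3, 197 and 49 passed, and without p53-/- clone 1 or clone 2 none did, with 888 and 1578 at an unadjusted p under 0.05. All 444 probes kept their direction in each of these fits, and the median size of their differences was 1.5 with weights, 1.26 with equal weights and 1.44 without clone 3. The 444 were selected by this same difference, so a kept direction is no independent support. The number of clones limits the precision, and an exact test of 3 clones against 3 cannot give a p below 0.1.

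Taking the brightest probe of each gene, 138 genes had a higher late change in p53-/- cells (1.29% of 10723) and 66 a lower one (0.615%). The late changes of the 3 clones of one genotype did not overlap those of the other in 107 of the 138 and in 60 of the 66. Over all genes, non-overlapping changes were found for 11.6% in the higher and 8.0% in the lower direction. In 31 of the 138 higher genes, p53-/- clone 3 lay within or beyond the WT clones while the other 2 p53-/- clones lay apart from them, and this was so in 6 of the 66 lower genes.

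Most of the higher genes were genes that WT cells turned down. Of the 138, 96 fell in WT cells and 9 of these also fell in p53-/- cells, 24 rose in p53-/- cells, and 18 passed in neither genotype alone. Their median change was -1.23 in WT and 0.36 in p53-/- cells on the log2 scale. The 66 lower genes had a median of 0.85 in WT and -0.59 in p53-/- cells; 34 rose in WT, 11 fell in p53-/- cells and 21 passed in neither. None of these genes passed in opposite directions in the 2 genotypes. Among all genes 3.19% rose and 5.75% fell in WT cells, and 1.49% rose and 1.64% fell in p53-/- cells. The counts above share the values that the genes were selected on. A higher difference favors a fall in WT and a rise in p53-/- cells, and a lower one the reverse. Their excess over the shares of all genes is therefore no separate result. Across all 10723 genes the fitted changes of the 2 genotypes had r = 0.39 and a slope of 0.31 for p53-/- on WT, as a description. The difference over all genes had a median of 0.08. At 18 h, 37 of the 138 higher genes were detected on no WT array and 17 on no p53-/- array. For the 66 lower genes these counts were 1 and 9. Changes of such genes are bounds or unmeasured, and the medians of the 138 and the 66 genes include them.

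**Figure D1:**
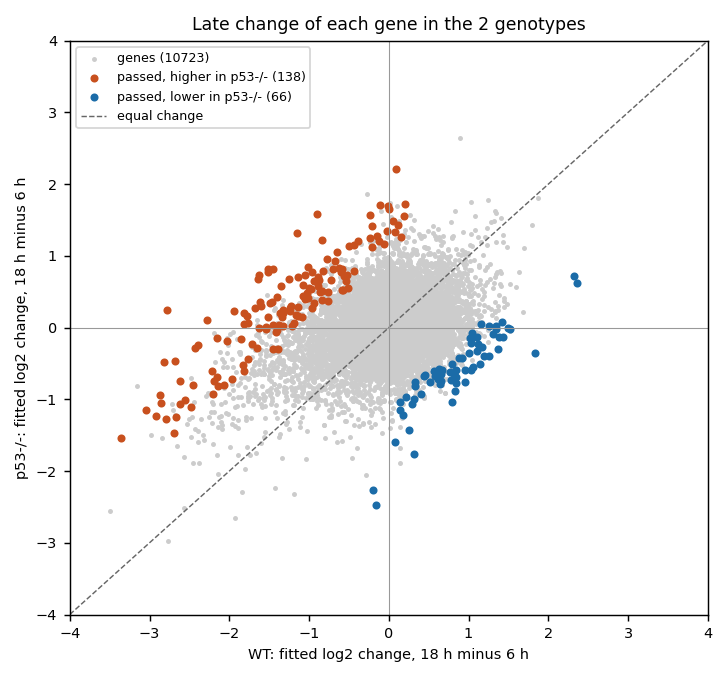
Fitted log2 change from 6 h to 18 h of each of 10723 genes (brightest probe), WT on the x axis and p53-/- on the y axis. Coloured points are the 138 genes with a higher and the 66 with a lower change in p53-/- cells that passed, most of the former left of 0 on the WT axis and near or above 0 on the p53-/- axis.

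The genes of DNA synthesis fell in both genotypes, and the fall was smaller in p53-/- cells. Of 43 measured members of the list for DNA replication and S phase, 33 fell in WT cells and 18 in p53-/- cells. Of all genes, 5.75% and 1.64% did. The median late change of the list was -1.63, -1.75 and -1.51 in WT clones 1, 2 and 3, and -0.82, -1.17 and -0.30 in p53-/- clones 1, 2 and 3. The clones of the genotypes did not overlap. The difference in late change had a median of 0.79 against 0.08 over all genes and was above 0 for 37 of 43. It passed for 4 members, Tk1, Uhrf1, Fen1 and Cdc45, with 0 lower, where 1.29% of all genes passed higher. Counting any probe of a gene added Mcm6, Mcm7 and Rrm2, although the brightest probe of Mcm6 gave -0.24 against 1.44 on the one that passed. With median scaling the list's median was 0.38, against -0.18 over all genes. For 23 of 43 the clones did not overlap in the higher direction, against 11.6% of all genes.

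Tk1 encodes thymidine kinase, which salvages thymidine for DNA synthesis. Its log2 level was 11.11, 10.93 and 10.85 at 6 h in WT clones 1 to 3 and 8.46, 7.78 and 7.53 at 18 h. In p53-/- clones 1 to 3 it was 11.75, 11.75 and 11.68 at 6 h and 10.71, 10.11 and 11.16 at 18 h. Every p53-/- clone was above every WT clone at both times, by 0.77 in the fit at 6 h, and the gap was wider at 18 h. The change was -3.05 ± 0.17 in WT and -1.15 ± 0.20 in p53-/- cells (± limma's moderated SE from the weighted fit, n = 3 clones each). The difference was 1.89 ± 0.27 (limma adjusted p = 0.0165). A second probe for Tk1 gave 1.88 and also passed. With equal weights the difference was 1.97.

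Uhrf1, which brings the maintenance DNA methyltransferase to newly copied DNA, started from the same level in both genotypes. It was 11.39, 11.17 and 11.03 in WT and 11.35, 10.96 and 11.23 in p53-/- clones at 6 h. At 18 h it was 8.45, 7.59 and 7.69 in WT and 9.88, 9.45 and 8.49 in p53-/- clones, p53-/- clone 3 lying just above the highest WT clone. The difference in late change was 1.82 ± 0.27 (adjusted p = 0.0165), and 1.38 with equal weights. Fen1, the flap endonuclease of Okazaki fragment processing, differed by 1.27 ± 0.24, with a change of -2.07 in WT and -0.80 in p53-/- cells. Cdc45, a subunit of the replicative helicase, differed by 1.47 ± 0.28, with -2.16 and -0.68. In neither of these 2 did the late changes of the clones overlap.

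The E cyclins of the G1 to S transition did not pass. On its brightest probe Ccne1 changed by -1.95 in WT and -0.87 in p53-/- cells (difference 1.08 ± 0.24, adjusted p = 0.0336, B = -0.60), while its other probe gave a difference of -0.29, and Ccne2 changed by -2.49 and -1.10. Neither was well above background on any WT array at 18 h, so their WT falls are bounds, at least 2.18-fold for Ccne1 and 3.83-fold for Ccne2. Both belong to a list of CDK inhibitors, G1 cyclins, RB and E2F genes in which 0 of 23 measured members passed. Cdkn1b (p27), a CDK inhibitor induced when growth factors are removed, changed by -0.04 in WT and 0.92 in p53-/- cells (adjusted p = 0.0817, B below 0), and Ccnd1, cyclin D1, by 0.36 and -0.30.

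The genes of G2 and mitosis moved the same way. Of 35 measured, 25 fell in WT cells and 6 in p53-/- cells, against 5.75% and 1.64% of all genes. The median late change was -1.12, -1.49 and -1.45 in the WT clones and -0.61, -0.95 and -0.37 in the p53-/- clones. The difference had a median of 0.82, was above 0 for 32 of 35, and passed for Spc25 and Nusap1, where 1.29% of all genes passed higher. The median was 0.21 with median scaling and 0.54 without p53-/- clone 1. Spc25, a kinetochore protein of the NDC80 complex, was 9.71, 9.47 and 9.29 in WT and 9.24, 9.08 and 9.03 in p53-/- clones at 6 h. At 18 h it was 7.17, 6.43 and 6.47 in WT and 8.34, 7.87 and 6.45 in p53-/- clones, so p53-/- clone 3 ended as low as the WT clones. The difference was 1.81 ± 0.27 (adjusted p = 0.0165), and 1.24 with equal weights. Nusap1, which binds spindle microtubules, differed by 1.33 ± 0.27 and its clones did not overlap. Mad2l1 and Ndc80, the spindle checkpoint and kinetochore genes with the next smallest p, had differences of 2.34 and 1.49 that did not pass (B = -0.46 and -0.76). In Mad2l1, p53-/- clones 1 and 2 changed by -0.56 and -0.82 but clone 3 by -4.72, beyond every WT clone. Ndc80 was not well above background on any WT array at 18 h, which bounds its WT fall at 2.77-fold or more.

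Histone genes that are transcribed with replication also fell, 29 of 42 measured in WT and 20 in p53-/- cells, against 5.75% and 1.64% of all genes. For the difference 0 passed. Its median was 0.53, with 38 of 42 above 0. For 13 the clones did not overlap in the higher direction, against 11.6% of all genes. On its brightest probe H4c6 changed by -2.45 in WT and -1.03 in p53-/- cells (adjusted p = 0.0359, B = -0.87) and a second probe gave a difference of 0.19. H3c3 fell in both genotypes, with changes of -3.50 in WT and -2.55 in p53-/- cells. Probes for histone genes can share sequence among the copies, so single members are uncertain. In bulk RNA, fewer cells in S phase or mitosis and less RNA of these genes per cell cannot be told apart.

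**Figure D2:**
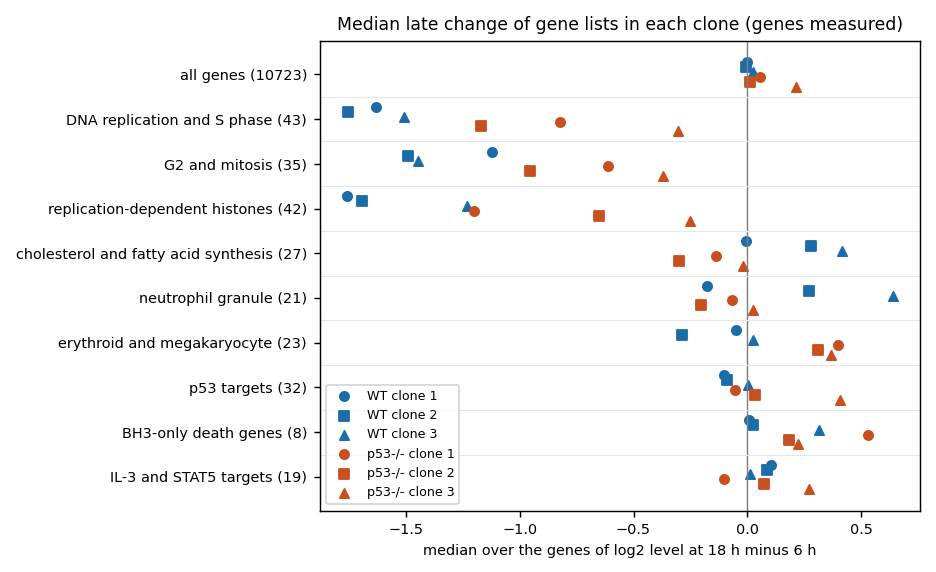
Median over the measured genes of each list (number in brackets) of the log2 change from 6 h to 18 h, one point per clone, blue for WT and orange for p53-/-. The WT clones lie at -1.75 to -1.51 and the p53-/- clones at -1.17 to -0.30 for DNA replication and S phase, while all genes lie between -0.01 and 0.21.

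Promoter sequences of members of these lists are shown with the motifs that regulators of the cycle are known to bind. The windows (RefSeq, GRCm38.p6) lie around the start of the transcript, for the most part upstream of it, and matches on either strand are in capitals. For E2F factors the letters TTTGGCGC, TTTCGCGC, TTTCCCGC and TTTGGCGG were searched, the first and last of which differ only in their final letter. They were in the windows of 14 of 36 matched genes of the DNA replication list, 2 of 30 of the mitosis list and 2.70% of all 27025 genes. For the cell cycle homology region, a motif of late cycle genes, TTTGAA was searched, and was found for 6 of 36, 21 of 30 and 20.2%. Uhrf1, at chr17:56304063-56304362 (+ strand), and Mcm7, which encodes a subunit of the replicative helicase, at chr5:138171834-138172133 (- strand), are shown for the first motif, and Spc25, at chr2:69206164-69206463 (- strand), for the second. A match of letters is a description and does not show that a factor was bound, and Tk1, Fen1 and Cdc45 had no match to the E2F letters in their windows.
Uhrf1: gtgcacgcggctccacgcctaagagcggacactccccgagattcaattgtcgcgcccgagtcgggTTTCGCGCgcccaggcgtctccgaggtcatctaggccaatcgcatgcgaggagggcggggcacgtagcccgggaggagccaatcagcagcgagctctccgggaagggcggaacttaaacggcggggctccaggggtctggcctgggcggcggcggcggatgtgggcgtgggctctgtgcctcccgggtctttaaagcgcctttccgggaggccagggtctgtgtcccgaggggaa
Mcm7: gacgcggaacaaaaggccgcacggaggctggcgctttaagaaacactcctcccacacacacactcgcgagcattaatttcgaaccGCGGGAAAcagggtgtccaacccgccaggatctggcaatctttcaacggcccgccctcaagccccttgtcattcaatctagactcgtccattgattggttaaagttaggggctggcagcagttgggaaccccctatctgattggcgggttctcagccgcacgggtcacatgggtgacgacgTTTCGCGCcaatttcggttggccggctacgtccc
Spc25: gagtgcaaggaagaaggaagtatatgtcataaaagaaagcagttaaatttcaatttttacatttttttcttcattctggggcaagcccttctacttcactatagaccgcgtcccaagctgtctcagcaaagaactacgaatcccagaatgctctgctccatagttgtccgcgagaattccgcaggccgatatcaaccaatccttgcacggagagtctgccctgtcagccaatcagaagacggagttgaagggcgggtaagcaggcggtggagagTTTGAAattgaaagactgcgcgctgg

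Ezh2 and Mthfd2 also passed. Ezh2, the methyltransferase of a Polycomb complex, fell by 1.71 on the log2 scale in WT cells and changed by -0.22 in p53-/- cells, a difference of 1.49 ± 0.25. It was named after its values were seen. Mthfd2, a mitochondrial enzyme of folate metabolism that ATF4 induces, changed by -2.92 in WT and -1.24 in p53-/- cells, a difference of 1.68 ± 0.34. It was the one member of 33 in the ATF4 and tRNA synthetase list that passed, where 1.29% of all genes passed higher. Phgdh, the first enzyme of serine synthesis in that list, passed as falling in both genotypes and was not well above background on any array at 18 h, which bounds the falls at 1.93-fold or more in WT and 4.19-fold or more in p53-/- cells. Of the tRNA synthetases, Lars fell by 0.89 in p53-/- cells, with no WT change in the fit, and Mars1 changed by 0.36 in WT and -0.56 in p53-/- cells. Neither difference passed.

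Cholesterol synthesis went the other way. Of 27 measured genes of cholesterol and fatty acid synthesis, 4 rose in WT cells and 0 in p53-/- cells, where 2 fell. Among all genes 3.19% rose in WT cells, and 1.49% rose and 1.64% fell in p53-/- cells. The difference had a median of -0.63 against 0.08 over all genes and was below 0 for 20 of 27. It passed for 3 members, all lower in p53-/- cells, where 0.615% of all genes passed lower. For 10 of 27 the clones did not overlap in that direction, against 8.0% of all genes. The list medians were -0.01, 0.28 and 0.42 in the WT clones and -0.14, -0.30 and -0.02 in the p53-/- clones. The 7 members above 0 were Acss2 (0.45), Fads1 (0.33) and, at 0.03 or less, the sterol enzymes Nsdhl, Ebp and Dhcr7, the sterol sensor Insig1 and the fatty acid synthase Fasn. With median scaling the list's median was -0.96.

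Sc5d encodes the sterol C5-desaturase, a late step of cholesterol synthesis. It was 5.98, 5.78 and 5.67 at 6 h and 6.93, 7.37 and 7.03 at 18 h in the WT clones, and 6.26, 6.09 and 5.80 at 6 h and 5.96, 5.85 and 5.19 at 18 h in the p53-/- clones. It rose in every WT clone and had a lower value at 18 h in every p53-/- clone. All of these levels lay below the median over all genes, 7.83 to 7.97 on the same arrays. The small p53-/- changes at such low signal are uncertain. The change was 1.37 ± 0.16 (SE) in WT and -0.30 ± 0.19 in p53-/- cells, and the difference was -1.67 ± 0.25 (adjusted p = 0.0165) with weights and -1.68 without.

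Mvd, the mevalonate diphosphate decarboxylase, was 7.46, 7.31 and 7.05 at 6 h and 8.27, 8.42 and 8.06 at 18 h in WT clones, against 8.52, 9.04 and 9.23 and then 8.32, 8.17 and 9.34 in p53-/- clones. At 6 h every p53-/- clone was above every WT clone, by 1.54 in the fit, and at 18 h they overlapped. The difference in late change was -1.36 ± 0.25 (adjusted p = 0.022). Tm7sf2, a sterol C14-reductase, was steady in WT cells at 0.18 ± 0.18 and fell in p53-/- cells by 1.22 (difference -1.40 ± 0.27), but its p53-/- clone 3 changed by 0.18, within the WT clones, and with equal weights the difference was -0.91 (limma unadjusted p = 0.070). A second probe gave 0.02.

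Among the sterol enzymes that did not pass, Lss changed by 0.47 in WT and -0.67 in p53-/- cells and Cyp51 by 1.00 and -0.09, with adjusted p of 0.0299 and 0.0343 but B below 0. Hmgcs1 rose in WT cells by 0.80 and changed by 0.17 in p53-/- cells (adjusted p = 0.103). A second, dimmer probe passed for Fdps (-1.84 ± 0.24), which makes farnesyl diphosphate, and for Mvk (-1.76 ± 0.36), mevalonate kinase, where the brightest probe gave -0.67 and -1.12 and did not pass. With any probe counted, 6 genes of the list passed lower, Fdps, Mvk and the regulator Srebf2 besides the 3 above.

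The box CCAAT, bound by NF-Y, a partner of the sterol-regulated SREBP factors, was in the windows of 18 of 21 matched genes of this list and of 41.1% of all genes. It was also in 22 of 36 genes of the DNA replication list and 22 of 30 of the mitosis list, so it was not particular to this list. The letters CACCCCAC, the core of a sterol regulatory element, were in 1 of 21 and 3.30%. Mvk, at chr5:114444019-114444318 (+ strand), is shown for its 5 CCAAT boxes, and Sc5d, at chr9:42264251-42264550 (- strand), as the gene of the list with the largest difference on its brightest probe.
Mvk: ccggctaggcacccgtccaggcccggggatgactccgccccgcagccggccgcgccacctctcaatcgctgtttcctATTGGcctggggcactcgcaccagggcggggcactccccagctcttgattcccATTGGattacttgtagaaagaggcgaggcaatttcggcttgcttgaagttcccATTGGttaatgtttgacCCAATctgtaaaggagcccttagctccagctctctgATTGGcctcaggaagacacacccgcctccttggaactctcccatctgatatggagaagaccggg
Sc5d: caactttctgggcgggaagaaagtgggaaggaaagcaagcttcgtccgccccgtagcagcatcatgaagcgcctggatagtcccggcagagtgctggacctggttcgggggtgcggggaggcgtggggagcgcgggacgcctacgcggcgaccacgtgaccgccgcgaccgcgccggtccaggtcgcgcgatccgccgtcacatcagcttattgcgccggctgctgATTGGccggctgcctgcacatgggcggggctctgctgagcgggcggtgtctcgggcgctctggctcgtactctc

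**Figure D3:**
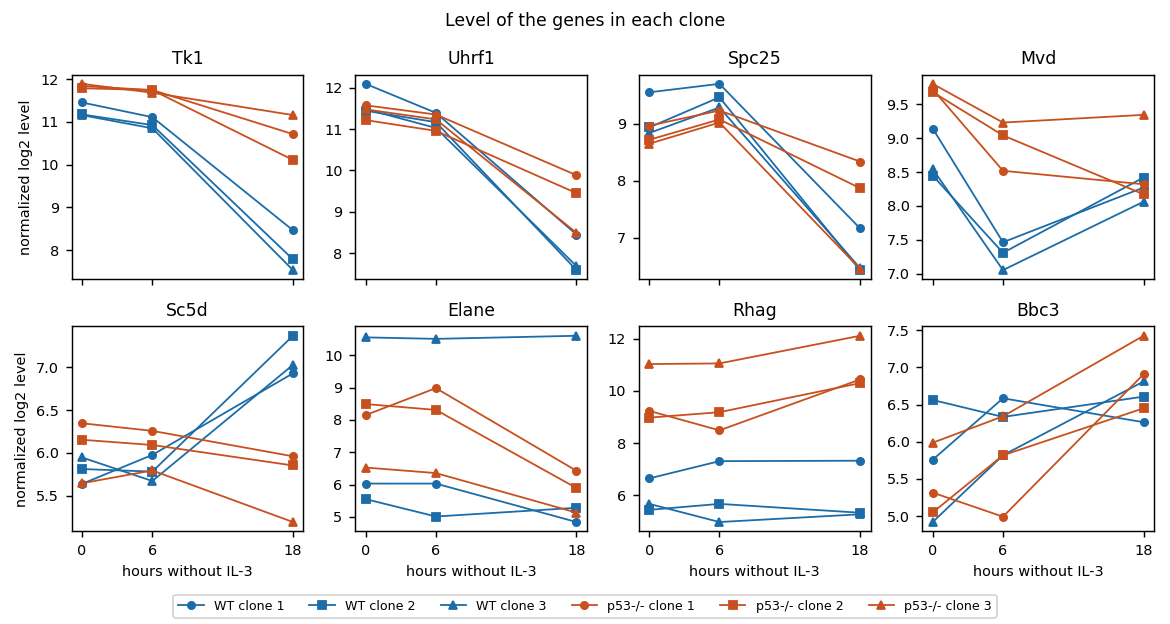
Normalized log2 level of 8 genes (y axes, scaled per panel) at 0, 6 and 18 h without IL-3 (x axis), one line per clone, blue for WT and orange for p53-/-. Tk1, Uhrf1 and Spc25 drop after 6 h, further in WT clones except that p53-/- clone 3 meets them for Spc25, Sc5d and Mvd turn up in every WT clone, Elane drops in p53-/- clones and Rhag rises in them.

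Of the lineage markers, 1 of 21 granule genes passed lower and 4 of 23 erythroid genes higher, where 0.615% and 1.29% of all genes did. The clones already differed widely in their levels. Elane, the neutrophil elastase, had the most negative difference of the 66 lower genes, -2.31 ± 0.39 (adjusted p = 0.0188). Its level in p53-/- clones was 8.99, 8.31 and 6.35 at 6 h and 6.43, 5.89 and 5.13 at 18 h, a fall in every clone. In WT clones it was 6.03, 5.01 and 10.51 at 6 h and 4.84, 5.28 and 10.61 at 18 h. The high WT level was that of clone 3 alone, and Elane was detected on 2 of 3 WT arrays at 6 h and 1 of 3 at 18 h, so its WT change rests on few measured values. Mpo, the myeloperoxidase, was detected on 2 of 3 WT arrays at 6 h and 1 of 3 at 18 h. Its brightest probe changed by -0.47 in WT and -1.81 in p53-/- cells (adjusted p = 0.053, B = -1.87), and 2 other probes passed, with differences of -2.21 ± 0.24 and -1.57 ± 0.28.

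Over the neutrophil granule list, 1 of 21 measured genes passed, lower, and the difference had a median of -0.55. For 8 of 21 the clones did not overlap in that direction, against 8.0% of all genes. Without WT clone 3 the median was -0.31. Cebpe, a transcription factor of late granulocyte maturation, rose by 1.12 in WT cells and changed by 0.25 in p53-/- cells (adjusted p = 0.042, B below 0), and it was above 10 in WT and below 9 in p53-/- clones at both times. Cxcr2 changed by 0.59 and -0.80 and Lcn2 by 0.18 and -0.84, neither passing. Prtn3, proteinase 3, changed by 0.62 and -0.18, and Ctsg, cathepsin G, fell in both, by 0.81 in WT and by 1.36 in p53-/- cells. The median level of the list was 5.35 to 6.44 in 5 clones at both times and 10.21 and 10.61 in WT clone 3. The part of that clone's level in these results was not tested.

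In the erythroid and megakaryocyte list 4 of 23 measured genes passed, all higher, and the difference had a median of 0.70. For 8 of 23 the clones did not overlap in that direction, against 11.6% of all genes. Within p53-/- cells 4 of 23 rose and 0 fell, against 1.49% and 1.64% of all genes. The median depended on the clones and the processing, being 0.40 with equal weights, 0.35 with median scaling, 0.17 without p53-/- clone 1 and 0.29 without clone 2. Rhag, a Rhesus-associated membrane protein of red cells, was 8.49, 9.19 and 11.06 at 6 h and 10.44, 10.30 and 12.12 at 18 h in p53-/- clones, a rise in each. In WT clones it was 7.31, 5.67 and 4.97, then 7.33, 5.33 and 5.27. The difference was 1.82 ± 0.29 (adjusted p = 0.0182), and 2 other probes gave 0.94 and 1.00 without passing. Car1, a carbonic anhydrase of red cells, rose in p53-/- cells by 1.41 ± 0.21 and changed by -0.21 in WT cells, where it was detected on 1 of 3 arrays at each time. Car2, another carbonic anhydrase, changed by 0.79 and -0.44, and its level spanned 4.85 to 12.37 over the clones at 18 h. Hemgn, a nuclear protein of blood progenitors, fell in WT cells by 0.97 and changed by 0.27 in p53-/- cells. Ermap, a red cell membrane protein, rose by 1.54 in p53-/- cells but did not pass for the difference (adjusted p = 0.0335, B = -0.59), and clone 3 changed by -1.44.

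Gata1, Klf1 and Hba-a1, defining genes of the red cell lineage, had differences of -0.48, 0.70 and -0.03 and did not pass. The median level of the list was already higher in p53-/- clones at 6 h, 8.42 to 9.76 against 5.75 to 7.53 in WT clones, and was 9.35 to 9.80 against 5.39 to 6.90 at 18 h. Whether a share of cells along this lineage changed was not tested. Mast cell and basophil genes had a median level of 11.50 to 12.25 in WT and 8.30 to 10.86 in p53-/- clones at both times, and 0 of 13 passed. Among them, Mcpt8, a basophil protease, fell in WT cells (-2.12) and changed by -0.34 in p53-/- cells (adjusted p = 0.0312, B = -0.28), and Fcer1a, a chain of the IgE receptor, changed by -0.32 and 0.67. Of the myeloid progenitor list 0 of 13 passed, with Kit detected on 1 array of 18. The lists for monocytes and macrophages (0 of 10), lymphocytes (0 of 10) and stroma and endothelium (0 of 9) had none that passed.

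Of 32 measured p53 targets, 0 passed on their brightest probe for the difference, whose median was 0.15 against 0.08 over all genes, and Fas, a death receptor, passed lower on another probe. Cdkn1a was higher in WT clones at 6 h, 12.32, 11.90 and 11.11 against 9.89, 9.70 and 9.86, and then fell in both genotypes, by 1.34 in WT and by 1.82 in p53-/- cells (difference -0.48 ± 0.39, adjusted p = 0.444). At 18 h it was 12.01, 10.32 and 9.07 in WT and 8.03, 7.80 and 9.06 in p53-/- clones, so WT clone 3 ended beside p53-/- clone 3. Mdm2, which degrades p53, changed by -0.03 and -0.09, and Ccng1 by 0.29 and -0.19. Trp53inp1, a p53-induced nuclear protein, changed by 0.20 in WT and rose by 1.36 in p53-/- cells, from 7.74, 7.92 and 7.39 at 6 h to 9.16, 9.02 and 9.31 at 18 h. Its clones did not overlap, and it missed the threshold only on B (difference 1.17 ± 0.24, adjusted p = 0.0283, B = -0.02). It stayed 1.34 below WT at 18 h. Aen, an apoptosis-enhancing nuclease, rose by 0.78 in WT cells and changed by -0.10 in p53-/- cells, and Ckap2, which is also a mitotic gene, fell by 1.33 in WT cells.

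Of the BH3-only death genes 0 of 8 measured passed for the difference, but on the brightest probe the change of 2 passed within one genotype. Bbc3 was 6.58, 6.33 and 5.82 in WT clones at 6 h and 6.26, 6.61 and 6.81 at 18 h. In p53-/- clones it was 4.99, 5.82 and 6.34 at 6 h and 6.91, 6.45 and 7.42 at 18 h. It rose in p53-/- cells by 1.57 ± 0.29 (adjusted p = 0.015) and changed by 0.26 ± 0.24 in WT cells, with a difference of 1.30 ± 0.38 that did not pass (adjusted p = 0.060, B = -2.19) and with clones that overlapped. A second probe for Bbc3 changed by 0.28 in WT and 0.06 in p53-/- cells, so the 2 probes disagreed on the p53-/- rise. The levels above all lay below the median over all genes, 7.83 to 7.97 on these arrays. Bmf, a BH3-only protein released from the cytoskeleton, rose in WT cells by 1.33 ± 0.19 and changed by 0.35 in p53-/- cells (difference -0.98 ± 0.29, adjusted p = 0.0668). Pmaip1 (Noxa), Bcl2l11 (Bim), Bik and Bnip3l had differences of 0.32, 0.61, 0.68 and 0.54. None of 6 measured BCL-2 survival proteins and effectors passed, with Mcl1 at 0.17, Bcl2l1 (Bcl-xL) at 0.54, Bok at 0.85 (-0.66 on another probe) and Bcl2 at -0.83. The 5 other probes for Bcl2 ran from -1.21 to 0.98, so the probes of that gene disagreed in sign. Bax was not analysed here.

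In the list of IL-3 and STAT5 targets 0 of 19 passed, with a median difference of -0.02. Cish, Socs1 and Socs3, feedback inhibitors of cytokine signaling, had differences of 0.52, 0.31 and -0.50, Pim1 0.74 and Myc -0.82. Id1, an inhibitor of differentiation factors, changed by 0.78 in WT and -0.44 in p53-/- cells (adjusted p = 0.0297, B = -0.12), and Osm, a cytokine made by the cells, rose by 0.92 in WT cells and changed by -0.04 in p53-/- cells. Of 19 immediate early and ERK feedback genes 0 passed on their brightest probe. Fos fell in WT cells (-2.20) but changed by -0.07 in p53-/- cells, where it was detected on 0 of 3 arrays at 6 h and at 18 h, so it had no measured change there. Dusp5, an ERK phosphatase, rose by 1.25 in WT cells and changed by 0.29 in p53-/- cells. Klf2 changed by 0.71 in WT and -0.10 in p53-/- cells, and Klf6 passed higher on a dimmer probe.

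FOXO factors are released when AKT signaling ends and induce genes of growth arrest. Of 21 measured FOXO and growth-factor-withdrawal genes 0 passed for the difference. Tsc22d3 (Gilz) rose by 1.25 in WT cells and changed by -0.21 in p53-/- cells (adjusted p = 0.0304, B = -0.20), with differences of -1.07 and 0.09 on 2 other probes. Pik3ip1, an inhibitor of PI3K, rose by 1.04 in p53-/- cells and changed by 0.17 in WT cells, and Ccng2 fell by 1.41 in WT cells and changed by -0.31 in p53-/- cells. In the interferon list Trim30a was the one of 30 that passed, falling by 1.14 in WT cells and changing by 0.29 in p53-/- cells, while Gbp3, Mx1 and H2-D1 did not. In the heat shock and ER chaperone list Hmox1, the heme-degrading oxygenase, was the one of 21, with 0.32 in WT and -0.99 in p53-/- cells, and Cct2, Dnajb9 and Sdf2l1 had differences of 1.39, 1.18 and -1.01 that did not pass. Of the respiratory chain 1 of 63 passed, Sdhd, a subunit of succinate dehydrogenase, with -2.15 in WT and -0.14 in p53-/- cells, although its p53-/- clone 3 changed by -3.52. As 1.29% of all genes passed higher and 0.615% lower, 1 member is not read as a result about its list.

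Sphk1, Bcl11a, Gfi1, Sgk1, Ripk3 and Calm2 already differed in level at 6 h and had no call for the late change on their brightest probe. Sphk1, sphingosine kinase, was far above WT in p53-/- clones at 6 h, 12.80, 12.67 and 13.09 against 9.61, 10.55 and 8.19. At 18 h it was 13.79, 13.13 and 14.25 against 10.00, 9.54 and 6.79. The difference in late change was 1.59 ± 0.40 (adjusted p = 0.0442, B = -1.41), and a dimmer probe gave 1.54 ± 0.23 and passed, while another gave 0.03. Bcl11a, a zinc-finger transcription factor needed for lymphopoiesis, was 5.57 above WT at 6 h and 6.11 at 18 h, with a difference in late change of 0.29. Gfi1, a lineage-specific transcription factor, had gaps of -3.56 and -3.10 to WT, with 0.67. Sgk1 had 0.78, Ripk3 0.18 and Calm2 0.42. Calm3, which had a gap of 0.04 at 6 h, had 0.36.

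The largest differences belonged to genes of mixed roles. The highest of all was Smc3, a cohesin subunit, at 3.03 ± 0.53, but its late change was -2.57 in p53-/- clone 3, within the -3.28 to -1.10 of the WT clones, against 0.41 and 0.30 in p53-/- clones 1 and 2. It was named after its values were seen, and a second probe gave 1.34 and also passed. Among genes with clones that did not overlap, and with symbols that are only clone names passed over, the 12 highest began with Crhbp and Hs3st1, both at 2.47. Crhbp binds corticotropin-releasing hormone, and Hs3st1 is a heparan sulfate sulfotransferase. Crhbp was 13.38, 13.10 and 7.50 at 6 h and 13.24, 12.27 and 5.47 at 18 h in WT clones, and 9.82, 8.23 and 4.86, then 11.61, 9.33 and 5.69, in p53-/- clones, so it declined in every WT clone and increased in every p53-/- clone although WT clones were spread over a wider range than the change. Akr1c18, a steroid dehydrogenase, had 2.38, but was detected on 0 of 3 p53-/- arrays at either time, so it had no measured change there. Cep20 (2.37), Tbc1d19 (2.33), Haus1 (2.33), a subunit of the augmin complex of the spindle, Pgrmc1 (2.27), Nup210 (2.22), a nucleoporin, and Snx1 (2.16), a retromer subunit, fell in WT cells. Pdilt (2.32) fell in WT cells by 1.64. Cd59a (2.13), which protects cells from complement, rose in p53-/- cells by 2.22 and changed by 0.09 in WT cells. It was 11.52 in WT and 11.24 in p53-/- clone 3 at 6 h and between 4.42 and 5.68 in the other 4. Those 4 include p53-/- clones 1 and 2, which carry most of the weight. Their levels are low beside a median over all genes of 7.83 to 7.97 at 6 h, so the sizes of the Cd59a changes are uncertain.

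Nup210 was the most even of these. Its late change was -2.33, -2.76 and -2.95 in WT and -0.47, -0.64 and 0.71 in p53-/- clones, and its level was 10.67 to 10.75 in WT and 11.43 to 11.86 in p53-/- clones at 6 h. Haus1, Snx1, Cep20 and Pgrmc1 were not well above background on any WT array at 18 h, so their WT falls are bounds, at least 4.54-fold, 3.78-fold, 2.29-fold and 2.14-fold lower at 18 h, taken against the lowest signal detected on each array. Wars2 (2.06), the mitochondrial tryptophan tRNA synthetase, was detected on 0 of 3 WT arrays at 18 h and on 2 of 3 at 6 h, and its WT change did not pass.

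Among the 12 lowest by the same rule, after Elane, came Rflnb, which binds filamin, at -2.19. It was 6.02, 5.71 and 8.95 at 6 h and 7.37, 8.03 and 10.18 at 18 h in WT clones, and 5.94, 6.15 and 5.79, then 5.41, 6.37 and 5.24, in p53-/- clones. Fkbp11 (-2.06), a prolyl isomerase of the ER, and Mif (-1.67), a cytokine, fell in p53-/- cells by 2.26 and by 1.59, with WT changes of -0.20 and 0.08. Mif was 12.97, 12.84 and 13.58 at 6 h in p53-/- clones against 11.72, 11.19 and 11.30 in WT clones, and at 18 h they overlapped. Mouse Mif has near-identical pseudogenes, which its probe may read. Garnl3 (-1.73) rose in WT cells by 2.36 and changed by 0.63 in p53-/- cells. Snora70 (-1.71), a small nucleolar RNA, Rmdn1 (-1.65), Nckap5l (-1.65), Akna (-1.62), Nrp (-1.62, as the annotation names it) and Ago3 (-1.61), an Argonaute protein whose other probes gave 0.24 and -0.13, had positive fitted changes in WT and negative ones in p53-/- cells. Rmdn1 and Nckap5l were detected on 0 of 3 WT arrays at 6 h, which bounds their rises at 1.77-fold and 1.40-fold or more, and Nckap5l was detected on no p53-/- array at 6 h or 18 h.

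**Figure D4:**
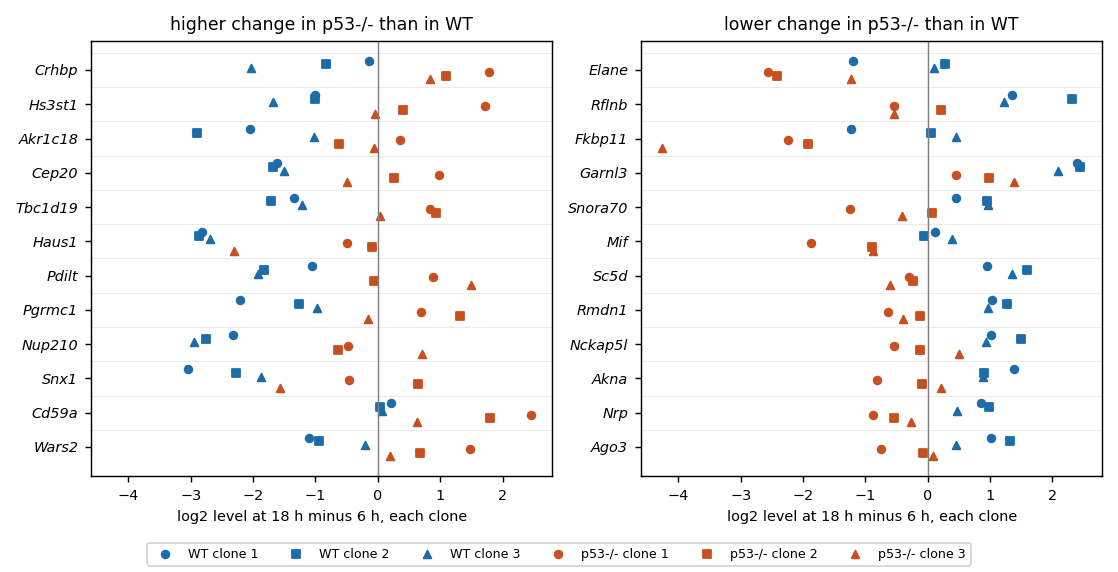
Log2 change from 6 h to 18 h (x axis) in each clone for the 12 genes with the largest difference in each direction among those that passed with clones that did not overlap, blue for WT and orange for p53-/-. Symbols that are only clone names were passed over. In the left panel all p53-/- points lie right of the WT points of the same gene, and in the right panel all lie left of them.

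Different probes of one gene did not always move together. Of the 138 higher genes 32 had other tested probes, and 27 of these 40 probes had the same sign, with 4 passing. Of the 66 lower genes 33 had others, and 28 of 49 had the same sign, with 1 passing. None passed in the opposite direction. The brightest probe of Myb, a transcription factor of blood progenitors, changed by 0.93 in WT and -0.14 in p53-/- cells (difference -1.07, not passing), whereas another probe passed with 2.10 ± 0.34, from -1.72 in WT and 0.37 in p53-/- cells. For Rrm2, the small subunit of ribonucleotide reductase, and Mcm7, the brightest and the passing probe had the same sign, 1.22 and 1.64 for Rrm2 and 0.87 and 1.61 for Mcm7, while another Rrm2 probe gave -0.48.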

How the data were processed

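Total RNA of 18 samples was hybridized to Illumina MouseWG-6 arrays. The authors deposited BeadStudio summary intensity values with a detection score per probe, which is 1 minus the detection p, and a log2 table that they quantile normalized with lumi, used here only as an alternative. The version of lumi was not given in the sources used here. The authors' methods exclude 1 outlying sample that they do not name, and all 18 were used here.

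The normexp model, with an offset of 16 and the background taken from the detection values, corrected the intensities, which were then quantile normalized and put on the log2 scale (limma 3.58.1, R 4.3.3). Probes detected (p at most 0.01) on at least 1 of the 12 arrays at 6 h and 18 h were kept. Of 46632 probes 29976 have 1 gene symbol, 10 several and 16646 none. The brightest probe stands for a gene, and other probes are given for some genes. The change from 6 h to 18 h was taken within each clone, array weights were estimated over the 6 changes, and limma's moderated test compared the genotypes, with Benjamini-Hochberg adjustment over 20368 probes. Passed means an adjusted p of at most 0.1 and a B statistic above 0, the thresholds of the study's methods. Where a sentence says that a gene rose or fell in a genotype, its change there passed by the same rule. Level gaps at 6 h and 18 h come from a fit of 6 groups over 18 arrays. The numbers pair arrays as the same clone: its deviations at 6 h and 18 h correlated at 0.28 to 0.71 over probes. On simulated data with the spread of this comparison (20368 probes), 100 of 100 probes shifted by 2 and 31 of 100 shifted by 1 were recovered, with 12 unshifted probes called.

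Lower bounds on a fold set the group's mean against the lowest signal among detected probes on each array of the undetected group. No 2 arrays held identical values. The members and gene lists were chosen with earlier results of these data known, so their counts are descriptions. Named genes were the 12 with the largest differences in each direction among those that passed with clones that did not overlap, up to 4 members of smallest p in each of the lists described at length, a fixed set of genes of the study's question, and some added after their values were seen (Mpo, Prtn3, Ctsg, Fdps, Mvk, Cyp51, Hmgcs1, Mcm7, Rrm2, Ezh2, Myb, Ermap, Smc3, Mcm6, Sdhd). In taking the 12, symbols that are only clone names (Rik, LOC, Gm or EG forms) were passed over for the next gene. Alternatives tried were the block by clone, clone weights, background correction, scaling, the detection filter, the thresholds, a trend in the spread and leaving out each clone. Gene lists numbered 26 for pathways and 7 for cell types. p-values measure the spread between clones.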

Additional observations from a re-analysis of the deposited data

Results flagged for a closer look

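Each gene here drew attention because its change from 6 h to 18 h differed between the genotypes by limma's test of that difference (adjusted p at most 0.1 and B above 0). Values are p53-/- minus WT changes on the log2 scale, and no explanation was tested for any of them.

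On the brightest probe, the late change was higher in p53-/- cells for Crhbp (2.47), Hs3st1 (2.47), Akr1c18 (2.38), Cep20 (2.37), Tbc1d19 (2.33), Haus1 (2.33), Pdilt (2.32), Pgrmc1 (2.27), Nup210 (2.22), Snx1 (2.16), Cd59a (2.13) and Wars2 (2.06). It was higher for the cell cycle genes Tk1 (1.89), Uhrf1 (1.82), Spc25 (1.81), Ezh2 (1.49), Cdc45 (1.47), Nusap1 (1.33) and Fen1 (1.27). It was higher for the red cell genes Rhag (1.82), Car1 (1.62), Hemgn (1.24) and Car2 (1.23), and for Mthfd2 (1.68) and Trim30a (1.43).

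It was lower for the sterol genes Sc5d (-1.67), Tm7sf2 (-1.40) and Mvd (-1.36), and for Elane (-2.31), Rflnb (-2.19), Fkbp11 (-2.06), Garnl3 (-1.73), Snora70 (-1.71), Mif (-1.67), Rmdn1 (-1.65), Nckap5l (-1.65), Akna (-1.62), Nrp (-1.62), Ago3 (-1.61) and Hmox1 (-1.31).

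On a dimmer probe of the gene it was higher for Myb (2.10), Tk1 (1.88), Rrm2 (1.64), Mcm7 (1.61) and Sphk1 (1.54), and lower for Mpo (-2.21 and -1.57 on 2 probes), Fdps (-1.84) and Mvk (-1.76). Of the 40 genes on their brightest probe, 38 had an unadjusted p under 0.05 with equal clone weights and 40 kept their sign under every alternative.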

How the results depend on the processing

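Direction was kept where calls were not, but the probes had been selected by that difference. All 444 probes that passed kept their sign under every alternative (426 of 426 still tested with detection on at least 3 arrays), while the number that passed moved. In 368 of the 444 the clones did not overlap, so reweighting or leaving out a clone could not turn the sign. The 248 higher and 196 lower probes became 148 and 59 with no replicate block over 12 arrays, 182 and 81 with none over 18 arrays, 336 and 202 with clone as a fixed block and 341 and 207 with clone as a random block. They became 348 and 357 without background correction, 268 and 346 with median scaling, 251 and 197 with quantile normalization over the 12 arrays, 269 and 216 with the authors' processed values, 354 and 321 with detection on at least 3 arrays (16889 probes tested), 328 and 312 with a trend in the spread, and 1596 and 1777 on the adjusted p alone. None passed with equal clone weights, where 399 passed for the WT change and 154 for the p53-/- change against 1805 and 573, or with no filter on detection, where 1215 and 415 did. An adjusted p of at most 0.05 changed no count.

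For the p53-/- change, 229 passed with no block over 12 arrays, 305 over 18 arrays, 1006 without background correction, 974 with median scaling, 834 with the authors' values and 2868 on the adjusted p alone, where 7338 passed for WT. Leaving out 1 clone gave 0 to 197 higher and 0 to 155 lower probes, 526 to 1746 for WT and 0 to 541 for p53-/-, and the zeros came without p53-/- clone 1 or clone 2. Leaving out p53-/- clone 3 with no weights, added after the data were seen, gave 181 higher and 41 lower, 1225 for WT and 288 for p53-/-. The cause of these shifts was not tested. Median scaling moved the median difference over all genes from 0.08 to -0.18. Relative to all genes, the list medians under it were 0.57 for DNA replication, 0.40 for mitosis, -0.78 for cholesterol synthesis and 0.53 for erythroid genes, against 0.71, 0.75, -0.71 and 0.62. With the authors' values they were 0.33, 0.30, -0.38 and 0.22.

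No named gene that passed turned its sign, but these genes had been picked by that difference. Some that did not pass turned: with equal weights Mcl1 (-0.057), Mdm2 (0.13), Pmaip1 (-0.25), Pim1 (-0.23) and Bcl11a (-0.098), without background correction Ripk3 (-0.011), with median scaling Bnip3l (-0.051), Pmaip1 (-0.29), Ripk3 (-0.22), Gfi1 (-0.040) and Calm3 (-0.31), with the authors' values Cdkn1a (0.11) and Ripk3 (-0.13), and without p53-/- clone 3 and weights Ripk3 (-0.0025). Leaving out 1 clone at a time gave differences of -0.19 to 0.53 for Bnip3l, -0.41 to 0.35 for Mcl1, -0.13 to 1.26 for Ccng2, -0.87 to 0.018 for Cdkn1a, -0.13 to 0.33 for Mdm2, -0.49 to 0.075 for Ccng1, -0.66 to 0.34 for Pmaip1, -0.74 to 0.93 for Pim1, -0.33 to 0.37 for Bcl11a, -0.0043 to 0.58 for Ripk3 and -0.11 to 0.78 for Calm2. The turns came without p53-/- clone 1 or 2, except that of Ripk3, which came without WT clone 2.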
